A study of Mus musculus with 10 samples.

Results

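The 10 genes examined are imprinted genes with roles in embryonic growth: H19, Igf2, Meg3, Dlk1, Peg3, Cdkn1c, Grb10, Mest, Igf2r and Plagl1. They are the entries of the deposited count table with these symbols, 10 of 43346 genes. RNA was sequenced from O9-1 cells, a mouse line derived from the cranial neural crest, which the study describes as tetraploid. There were 4 independent wildtype cultures (WT/1 to WT/4), 3 Kat5 ko clones (Kat5/1 to Kat5/3) and 3 Ep400 ko clones (Ep400/1 to Ep400/3). Kat5 is the acetyltransferase and Ep400 the ATPase of the Tip60/Ep400 chromatin remodeling complex, and the study asked which transcripts depend on each of them. Both knockouts were made with CRISPR/Cas9, and each clone was grown from a single sorted cell. The Kat5 ko clones carried indels in all alleles. Among the Ep400 ko clones, clone 1 carried frameshifts in all alleles, clone 3 also carried an in-frame deletion in 1 allele, and clone 2 carried in-frame deletions in most alleles. All cells were kept on Matrigel in conditioned medium with LIF and FGF2. The wildtype libraries are labelled as biological replicates, while each knockout library is 1 clone, so within a clone the knockout and the state of its founder cell cannot be told apart. The 10 genes were picked with differences in these same libraries in view. Their knockout differences are therefore given as a description, with standard errors (SE) but without p-values.

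Imprinted genes are transcribed mainly or only from the maternal or from the paternal chromosome, some of them only in certain tissues. For many of them, the choice is set in the germ line by DNA methylation at imprinting control regions. It is kept in body cells by factors such as Zfp57, which binds the methylated hexamer TGCCGC and recruits Trim28. Many imprinted genes lie in clusters that share a control region, for example H19 with Igf2, Dlk1 with Meg3, and Cdkn1c with Kcnq1ot1. Paternally expressed members such as Igf2, Dlk1, Peg3 and Mest mostly favor fetal growth, whereas maternally expressed members such as H19, Cdkn1c, Grb10 and Igf2r mostly restrain it. Transcript counts do not tell which parental copy was read, so loss of imprinting itself was not measured.

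In the GRCm38 assembly (mm10), 4 of the genes lie on chromosome 7. These are Peg3 at chr7:6703892-6730431, H19 at chr7:142575529-142578143, Igf2 at chr7:142650766-142666816 and Cdkn1c at chr7:143458339-143461050, all on the minus strand. H19 ends 72.6 kb from Igf2, and Igf2 791.5 kb from Cdkn1c. Dlk1 (chr12:109452823-109463336) and Meg3 (chr12:109541001-109571726) follow each other on the plus strand with 77.7 kb between them. Grb10 (chr11:11930508-12038683, minus strand), Igf2r (chr17:12682406-12769664, minus strand), Mest (chr6:30723547-30748465, plus strand) and Plagl1 (chr10:13060504-13131694, plus strand) lie apart. H19 and Meg3 are long non-coding RNAs and the other 8 genes code for proteins. Transcripts from the opposite strand overlap Igf2 (Igf2os), Meg3 (Gm26906), Mest (Copg2) and Igf2r (Airn). The strand setting of the counting is not given in the sources used here, and reads of these pairs may not have been separated.

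Grb10, Peg3 and Meg3 are the members that were high in some libraries and close to 0 in others, and the sequences at their starts are shown for that reason. Each run holds 250 bases before and 50 bases after the start of a RefSeq transcript on GRCm38.p6, 5′ to 3′ in the direction of transcription, and capitals mark the hexamer TGCCGC on either strand.
Grb10 (chr11:12037371-12037670, minus strand): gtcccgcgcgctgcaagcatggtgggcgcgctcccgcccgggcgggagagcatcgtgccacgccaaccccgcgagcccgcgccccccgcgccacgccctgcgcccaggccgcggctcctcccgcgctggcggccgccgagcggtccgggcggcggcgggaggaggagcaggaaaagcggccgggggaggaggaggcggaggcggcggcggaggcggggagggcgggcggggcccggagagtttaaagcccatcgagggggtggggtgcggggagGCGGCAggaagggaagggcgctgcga
Peg3 (chr7:6730370-6730669, minus strand): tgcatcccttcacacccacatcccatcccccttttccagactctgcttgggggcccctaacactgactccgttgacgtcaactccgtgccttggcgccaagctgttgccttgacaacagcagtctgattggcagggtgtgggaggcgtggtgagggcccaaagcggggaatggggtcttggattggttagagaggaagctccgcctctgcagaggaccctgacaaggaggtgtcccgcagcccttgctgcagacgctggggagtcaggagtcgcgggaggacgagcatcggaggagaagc
Meg3 (chr12:109540746-109541045, plus strand): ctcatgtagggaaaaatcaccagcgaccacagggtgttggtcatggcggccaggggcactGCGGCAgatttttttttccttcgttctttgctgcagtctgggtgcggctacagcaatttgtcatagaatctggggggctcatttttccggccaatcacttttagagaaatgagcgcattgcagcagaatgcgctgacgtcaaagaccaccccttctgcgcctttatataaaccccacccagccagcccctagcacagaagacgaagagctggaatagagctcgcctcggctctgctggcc
The Grb10 window shown held 45 CG dinucleotides, more than 98.1% of the 32851 windows in the same RefSeq table, in which the median was 7. A second Grb10 start in the table had 9 CG dinucleotides and no hexamer, and a second Meg3 start had 1 CG dinucleotide and neither the hexamer nor TATAAA. The Peg3 and Meg3 windows shown held 13 CG dinucleotides each. The hexamer occurred once in the Grb10 window and once in the Meg3 window, on the strand opposite to transcription in both, and not in the Peg3 window. It was present in 11.6% of all windows. The Meg3 window also held the letters TATAAA in 2 overlapping matches, 1 on each strand, a motif that occurred in 13.6% of all windows. RefSeq windows were matched for 8 of the 10 genes, and H19 and Cdkn1c had none in this table.

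Between 30968945 and 48301792 reads were counted on genes in each library. Values are given as CPM, the read count scaled to library size, after TMM normalization, which corrects each library for its composition. Kat5 itself was at 54.5 ± 4.26 CPM in wildtype (SD, n = 4) and at 20.8 ± 3.89 CPM in the Kat5 ko clones (SD, n = 3), and Ep400 was at 162 ± 4.64 CPM in wildtype (SD, n = 4) and at 57.6 ± 2.99 CPM in the Ep400 ko clones (SD, n = 3). Of 15 neural crest and cranial mesenchyme markers, 11 were above 1 CPM in all libraries, while Sox10 and Foxd3 had 0 counts throughout. The summed level of this list was 1670 to 1930 CPM in wildtype, 1580 to 1920 CPM in Kat5 ko and 2450 to 3680 CPM in Ep400 ko libraries. Most of the Ep400 ko sum came from Prrx1 (mean 1310 CPM, 839 in wildtype), Pdgfra (578 and 125) and Cd44 (543 and 459). Of the 12 markers tested for Ep400 ko, 8 had a higher and 4 a lower level than wildtype. Pluripotent cell markers summed to at most 0.0582 CPM in any library. The 6 epithelial markers summed to 1.81 to 4.87 CPM in wildtype and to at most 0.944 CPM in the clones. Of 7 trophoblast markers, Gcm1, Elf5, Hand1 and Tpbpa had 0 counts in all libraries, Prl3d1 had at most 6 counts and Psg17 was at most at 1.21 CPM. The list's sum (24.2 to 193 CPM in wildtype, 93.8 to 771 CPM in Kat5 ko and 170 to 435 CPM in Ep400 ko libraries) was nearly all Prl2c2. The part of these markers in the differences below was not tested, and in bulk RNA fewer cells of a type and less RNA per cell cannot be told apart. The chi-square per degree of freedom between wildtype libraries was 83.7 to 138 for the pairs with WT/3 and 28.1, 46.5 and 84.9 for the others, the last between WT/2 and WT/4. It was 258 and 243 for Kat5/1 against Kat5/2 and Kat5/3 and 94.5 between those, and 257 and 224 for Ep400/3 against Ep400/1 and Ep400/2 and 156 between those. Mitochondrial genes took 2.43% of counts in WT/3 and 1.2 to 1.78% in the other wildtype libraries, 0.893 to 1.24% in Kat5 ko and 1.58 to 3.24% in Ep400 ko libraries, the last in Ep400/3. The part of this share in the members' levels was not tested.

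**Figure D1:**
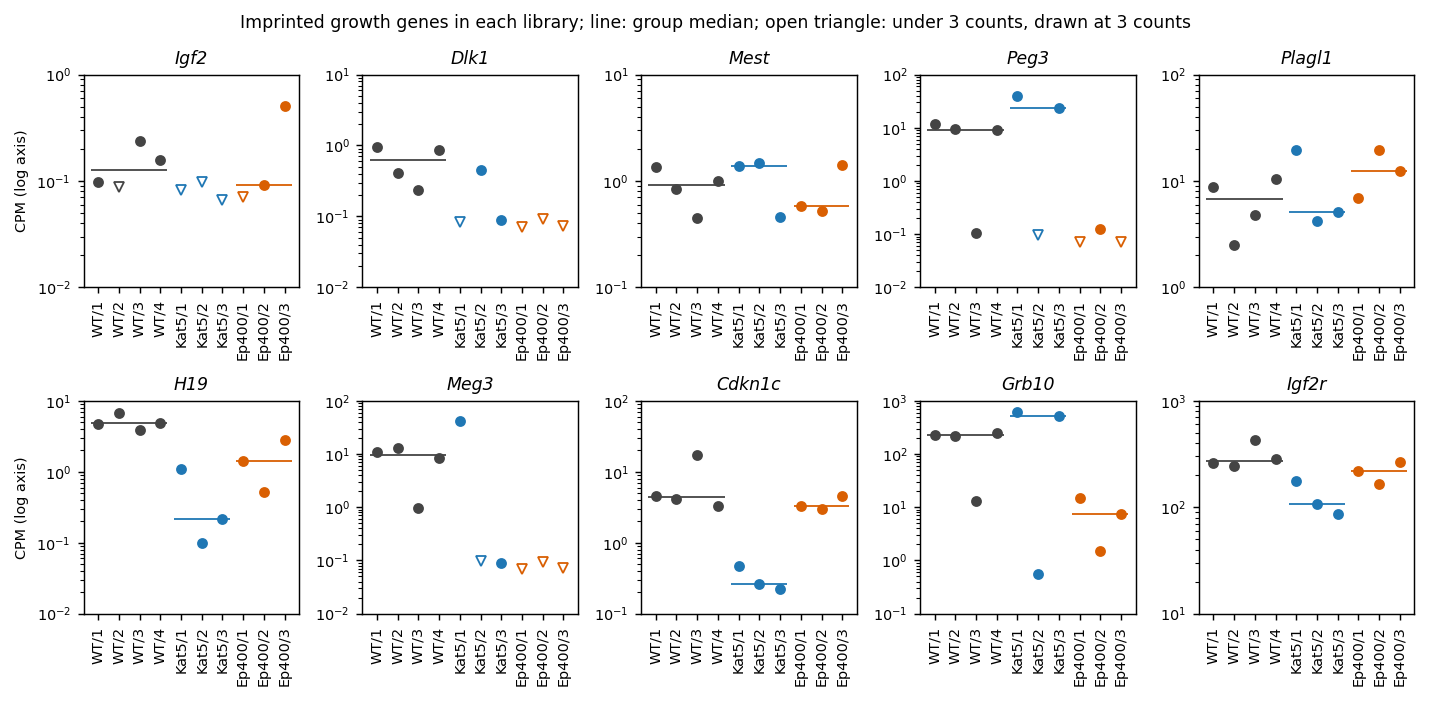
Level of each of the 10 genes (CPM, log axis) in the 4 wildtype (grey), 3 Kat5 ko (blue) and 3 Ep400 ko libraries (orange), with the group median as a line and libraries under 3 counts as open triangles at the level of 3 counts. Grb10, Peg3 and Meg3 were low in WT/3, in Kat5/2 and in all Ep400 ko libraries, whereas Cdkn1c was low in all Kat5 ko libraries.

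Igf2 encodes insulin-like growth factor 2, the main fetal ligand of the type 1 IGF receptor. In O9-1 cells it was close to the detection limit, with 3, 1, 9 and 7 counts in WT/1 to WT/4, 2, 0 and 0 counts in the Kat5 ko clones and 0, 3 and 21 counts in the Ep400 ko clones. Only Ep400/3 was above 10 counts. The groups overlapped, and the gene did not pass the filter on low counts in any comparison, so no log2-fold change is given. Pooled over libraries, the ratio of wildtype to Kat5 ko was 7.63 (95% interval 1.85 to 67.3) and that of wildtype to Ep400 ko was 0.66 (95% interval 0.346 to 1.25). These exact intervals cover counting error only.

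Dlk1, a transmembrane ligand of the Notch ligand family, was also sparse. Its counts were 29, 14, 9 and 38 in wildtype, 0, 14 and 4 in Kat5 ko and 1, 2 and 0 in Ep400 ko libraries. All Ep400 ko libraries lay below all wildtype libraries, whereas Kat5/2 lay within the wildtype range. The log2-fold change was −4.33 (SE 0.90) for Ep400 ko and −1.79 (SE 1.01) for Kat5 ko. The ratio of pooled wildtype to pooled Ep400 ko levels was 23.8, with a counting interval of 7.87 to 117. The median shift of chromosome 12 genes in the Ep400 ko libraries was −0.10, 0.06 and −0.10 on the log2 scale.

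Igf2r, the receptor that removes IGF2 from the cell surface, had the highest level per length of the 10 genes in wildtype (32.6 CPM per kb of exon). Its level was 259, 243, 427 and 284 CPM in wildtype, 176, 107 and 85.6 CPM in Kat5 ko and 219, 165 and 268 CPM in Ep400 ko libraries. The Kat5 ko clones were all below the wildtype range, and the Ep400 ko clones overlapped it. The log2-fold changes were −1.31 (SE 0.30) for Kat5 ko and −0.44 (SE 0.25) for Ep400 ko, and −1.66 to −1.09 for Kat5 ko when 1 library was left out. In Kat5/3, the library with the lowest Igf2r level, the median gene of chromosome 17 was also shifted by −0.38 on the log2 scale, compared to −0.06 in Kat5/2 and 0.04 in Kat5/1. Among Ep400 ko clones, Ep400/2 had the lowest Igf2r level and a chromosome 17 shift of −0.33, and the shift was 0.11 in Ep400/1 and −0.15 in Ep400/3. The part of these shifts in the Igf2r levels was not tested. Airn, the antisense transcript across the start of Igf2r, was at 1.61 to 2.88 CPM in wildtype, 1.01 to 2.24 CPM in Kat5 ko and 2.66 to 5.91 CPM in Ep400 ko libraries. No difference of Airn to wildtype passed the test (edgeR, adjusted p = 0.372 for Kat5 ko and 0.185 for Ep400 ko).

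Grb10 encodes an adaptor that binds activated insulin and IGF1 receptors and dampens their signal. It reached 228, 219 and 247 CPM in WT/1, WT/2 and WT/4, but 13 CPM in WT/3, which is 5.81% of the wildtype median. Among the Kat5 ko clones it was at 611 CPM in Kat5/1, 0.556 CPM in Kat5/2 and 524 CPM in Kat5/3. The Ep400 ko clones had 15, 1.51 and 7.36 CPM. Grb10 was thus far below the other wildtype cultures in 1 wildtype culture, 1 Kat5 ko clone and 3 Ep400 ko clones, and was above all wildtype cultures in 2 Kat5 ko clones. In raw numbers, Kat5/2 had 17 counts and Kat5/3 had 23892. The log2-fold change was −4.43 (SE 1.08) for Ep400 ko and 1.09 (SE 1.44) for Kat5 ko, and the Ep400 ko range overlapped the wildtype range because of WT/3. Between the knockouts, the log2-fold change was −5.58 (SE 1.91). The median gene of chromosome 11 was shifted by −0.19 to −0.26 in the Ep400 ko libraries and by 0.06 in Kat5/2.

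Cdkn1c encodes the cyclin-dependent kinase inhibitor p57. Its level was 4.54, 4.16, 17.4 and 3.24 CPM in wildtype, 0.47, 0.261 and 0.219 CPM in Kat5 ko and 3.24, 2.95 and 4.53 CPM in Ep400 ko libraries. All Kat5 ko clones lay below every other library, and the Ep400 ko clones lay at or near the level of WT/1, WT/2 and WT/4. WT/3 was at 4 times the wildtype median (400%), so that Cdkn1c was high in the culture in which Grb10, Peg3 and Meg3 were low. The log2-fold change was −4.53 (SE 0.77) for Kat5 ko, −0.99 (SE 0.60) for Ep400 ko and 3.48 (SE 0.54) for Ep400 ko against Kat5 ko. When each library was left out in turn, the Kat5 ko value ranged from −4.93 to −3.63 and the Ep400 ko value from −1.24 to −0.12, the last without WT/3.

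H19, the non-coding RNA of the Igf2 cluster, was among the most even members in wildtype, with 4.73, 6.70, 3.92 and 4.89 CPM. It was at 1.08, 0.098 and 0.219 CPM in Kat5 ko and at 1.42, 0.522 and 2.83 CPM in Ep400 ko libraries. Both sets of clones were below all wildtype cultures without overlap, and they overlapped each other. Fitted log2-fold changes were −3.43 (SE 0.76) for Kat5 ko and −1.61 (SE 0.54) for Ep400 ko, and no left-out library turned either sign. For Kat5 ko, H19 passed the filter on low counts only through the wildtype libraries, so its kept sign there is no support. WT/3 did not stand apart for H19. The chromosome 7 median shifted by −0.13 to 0.10 in any knockout library.

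Meg3, the non-coding RNA next to Dlk1, was at 11.1, 13 and 8.40 CPM in WT/1, WT/2 and WT/4 and at 0.953 CPM in WT/3. In Kat5/1 it was at 41.0 CPM (1483 counts), whereas Kat5/2 and Kat5/3 had 1 and 4 counts. Each Ep400 ko library had a single Meg3 count. Pooled wildtype exceeded pooled Ep400 ko by a ratio of 316 (counting interval 108 to 1530). The log2-fold change was −8.13 (SE 1.11) for Ep400 ko. For Kat5 ko it was 0.72 (SE 1.68), and −6.95 without Kat5/1. Kat5/1 thus set the sign of the Kat5 ko value, and in this library the median gene of chromosome 12 was shifted by −0.28 on the log2 scale.

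Peg3, a paternally expressed zinc finger protein, was at 11.7, 9.58 and 8.92 CPM in WT/1, WT/2 and WT/4 and had 4 counts (0.106 CPM) in WT/3. It was at 39.8 CPM in Kat5/1 and 23.0 CPM in Kat5/3 and had 0 counts in Kat5/2. The Ep400 ko libraries had 0, 4 and 1 counts. The same 5 libraries were low as for Grb10. For Peg3, the log2-fold change was −7.27 (SE 1.61) for Ep400 ko and 1.46 (SE 1.5) for Kat5 ko. The pooled ratio of wildtype to Ep400 ko was 173 (counting interval 73.7 to 533).

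Plagl1, a zinc finger transcription factor that controls other imprinted genes, was at 8.69, 2.50, 4.79 and 10.5 CPM in wildtype, 19.4, 4.22 and 5.06 CPM in Kat5 ko and 6.91, 19.5 and 12.4 CPM in Ep400 ko libraries. The wildtype cultures alone spanned 4.2-fold and all groups overlapped. The log2-fold change was 0.53 (SE 0.64) for Kat5 ko, or −0.51 without Kat5/1, and 1.01 (SE 0.51) for Ep400 ko. Mest, which encodes an enzyme of the alpha/beta hydrolase fold, was at 1.36, 0.844, 0.45 and 0.991 CPM in wildtype, 1.38, 1.47 and 0.46 CPM in Kat5 ko and 0.583, 0.522 and 1.40 CPM in Ep400 ko libraries. Its groups overlapped as well, with log2-fold changes of 0.27 (SE 0.54) and −0.07 (SE 0.53). Copg2, which overlaps the end of Mest on the opposite strand, was far more abundant (73.0 to 95.7 CPM in wildtype).

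Per kb of exon, the wildtype means followed the order Igf2r (32.6 CPM per kb), Grb10 (19.5), Cdkn1c (3.6), H19 (2.06), Plagl1 (0.847), Peg3 (0.569), Meg3 (0.462), Mest (0.231), Dlk1 (0.108) and Igf2 (0.0228). The ranges of single wildtype libraries overlapped between several neighbours in this order, for instance between Peg3 and Meg3, which were at 7.58 ± 5.12 and 8.35 ± 5.27 CPM (SD, n = 4).

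**Figure D2:**
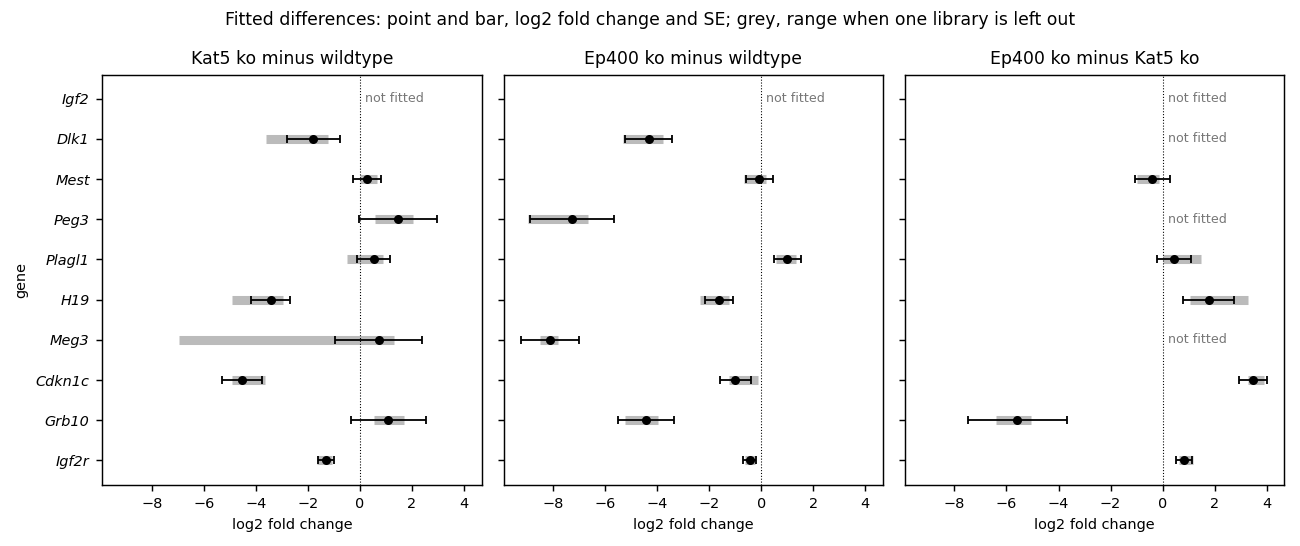
Fitted log2-fold changes of the 10 genes in the 3 comparisons (points, with SE as bars) and the range of the value when 1 library is left out (grey). The grey range was widest for Meg3 in the Kat5 ko comparison, from −6.95 to 1.30, and Igf2 did not pass the filter on low counts.

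Across all genes fitted with edgeR's quasi-likelihood test, 0.625% of 13434 genes passed an adjusted p of 0.05 between Kat5 ko clones and wildtype. Between Ep400 ko clones and wildtype 13.7% of 13836 genes passed, and between the knockouts 7.05% of 13587. Because the members were picked from these contrasts, their own calls are not counted. The median log2-fold change of the fitted members was 0.27 for Kat5 ko and −1.61 for Ep400 ko, compared to 0.00 and 0.04 over all genes. These medians describe the choice of members and show no shift of imprinted genes as a set. For Ep400 ko, Dlk1, Meg3 and Peg3 passed the filter on low counts only through wildtype, so their direction was fixed. Ranges did not overlap with wildtype for H19, Cdkn1c and Igf2r in Kat5 ko, all lower (10.8% of all genes fitted were lower and 8.79% higher in this way), and for H19, Meg3 and Dlk1 in Ep400 ko, all lower (16.0% lower and 14.3% higher). Between the knockouts, Cdkn1c was higher (19.8% of all genes fitted) and Meg3, by scaled level only, lower (18.9%) in Ep400 ko without overlap. For Meg3 this is no measured difference in range. Kat5/2 and each Ep400 ko library had 1 count, under the floor of 3 counts, and their levels differed only through library size. Meg3 was also not fitted between the knockouts, so the share of fitted genes is no measure for it. Both comparisons with wildtype use the same wildtype libraries. The number of genes passing for Kat5 ko was 84 with all libraries, 2654 without Kat5/1, and 1 to 56 without any other library. For Ep400 ko it was 1899, and 804, 989 and 830 without WT/1, WT/2 and WT/4. Between the knockouts it was 958, 2537 without Kat5/1, and 3 to 341 without any other clone.

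The spread between libraries of the same group was large for the same members. In wildtype, the SD of log2 CPM was 3.00 for Peg3, 2.07 for Grb10 and 1.72 for Meg3, compared to a median of 0.242 over 14028 genes, and these values were above at least 99.3% of genes. Igf2r (0.366) and H19 (0.318) were closer to the median. Among the Kat5 ko clones, the SD was 5.69 for Grb10, 5.30 for Peg3 and 4.95 for Meg3 (median 0.359), more than the difference between wildtype and Ep400 ko for Grb10. In contrast, Cdkn1c varied less among Kat5 ko clones (0.495) and among Ep400 ko clones (0.320) than among wildtype cultures (1.08). The SD of Meg3 in Ep400 ko (0.0725) comes from 1 count in each library and has no meaning as biological spread.

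To describe how often a gene was nearly lost in single libraries, levels below 10% of the wildtype median were counted among genes with a wildtype median of at least 1 CPM. This limit was chosen after values had been seen. Of the 10 members, 7 had that wildtype level, and 5 of them (71.4%) were below 10% in at least 1 library, compared to 4.19% of 11724 genes. Since the members were picked with these levels in view, their share describes the choice. They were Grb10 and Peg3 in 5 libraries each, Meg3 in 6, and H19 and Cdkn1c in Kat5/2 and Kat5/3. In a wildtype library this was the case for 3 members, all in WT/3, compared to 0.316% of all genes. WT/3 had 30 such genes in total, compared to 0 in WT/1, 7 in WT/2 and 0 in WT/4. Of all libraries, Kat5/2 had most (303, or 2.58%). Of 30 other imprinted genes at that wildtype level, 6 (20%) were below 10% in some library. They were Rian, Snrpn, Ndn, Rasgrf1, Slc38a4 and Dcn, named here after their values had been seen. Snrpn (ENSMUSG00000102252), which codes for a splicing protein, had 0 counts in Kat5/2 and 1 count in Ep400/1 and 91 to 155 counts in the others. Rasgrf1, a Ras exchange factor, was at 10.3 to 34.0 CPM in wildtype but at 0.98 and 0.263 CPM in Kat5/2 and Kat5/3. Its difference between Kat5 ko and wildtype did not pass the test (log2-fold change −1.58, SE 1.16, adjusted p = 0.454).

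**Figure D3:**
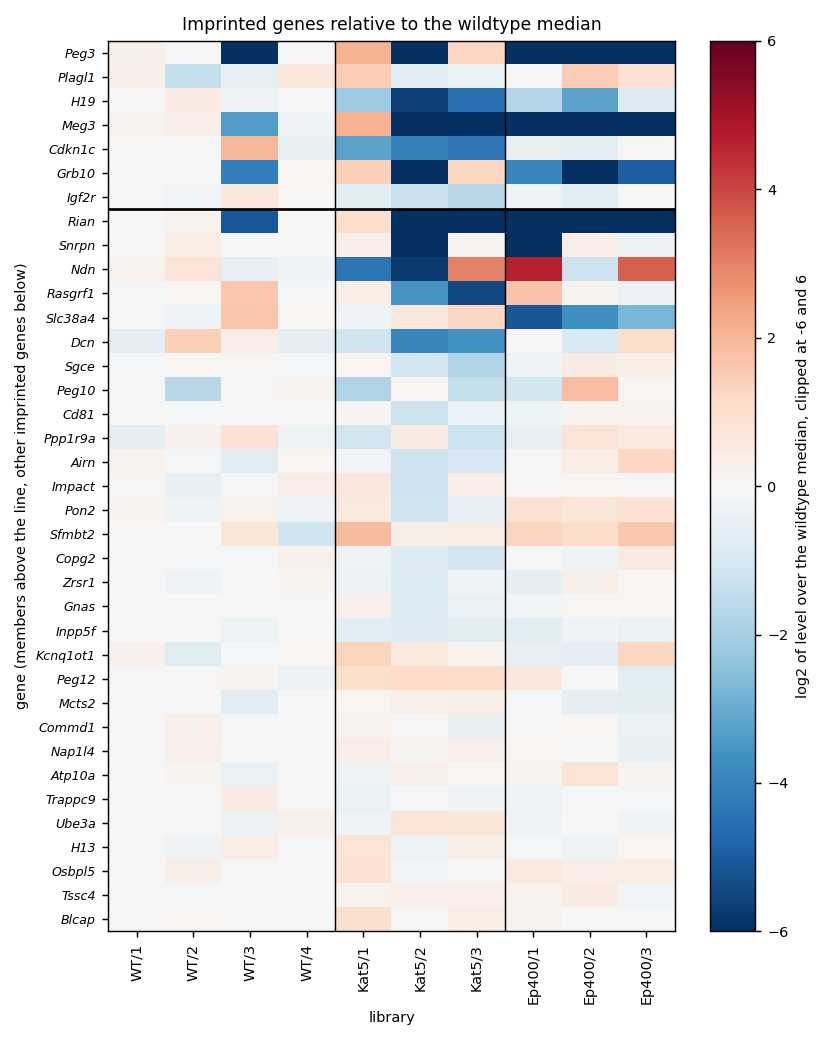
Level in each library relative to the wildtype median (log2, clipped at −6 and 6) for the 37 listed imprinted genes with a wildtype median of at least 1 CPM, with 7 members above the line and 30 other imprinted genes below. Levels below 10% in at least 1 library were found for 5 members and 6 other genes, and the remaining genes were at or above 10% of the wildtype median in all 10 libraries.

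Genes in the same clusters were compared next. Rian, a maternally expressed non-coding RNA 32.2 kb downstream of Meg3, was at 24.7, 28.3 and 24.8 CPM in WT/1, WT/2 and WT/4, 0.741 CPM in WT/3, 50.9 CPM in Kat5/1 and at most 0.307 CPM in the remaining 5 libraries. Its pattern was that of Meg3, with 1, 0, 6, 10 and 1 counts in Kat5/2, Kat5/3 and the Ep400 ko clones. Rian was reduced in Ep400 ko clones (log2-fold change −6.96, SE 1.32, adjusted p = 0.0138). In that comparison it passed the filter on low counts only through the wildtype libraries, so its direction was fixed by the filter. Mirg, further downstream, was at 0.383 to 1.46 CPM in WT/1, WT/2 and WT/4 and 0.0529 CPM in WT/3, but passed no test (adjusted p = 0.296 for Ep400 ko). Rtl1 had at most 4 counts in any library, and Dio3 had 0 counts throughout. In the cluster of Cdkn1c, Phlda2, a regulator of placental growth, fell in Ep400 ko clones (log2-fold change −3.57, SE 0.85, adjusted p = 0.0279) from 13 to 35 counts in wildtype to 6, 0 and 1 counts. This call was kept without WT/3 or Ep400/1 and lost without any 1 of the other 5 libraries (edgeR, adjusted p = 0.054 to 0.0728). Phlda2 too passed the filter only through the wildtype libraries, so its direction was fixed. Kcnq1ot1, the non-coding RNA of that cluster, was at 1.31 to 2.66 CPM in wildtype, 2.50 to 5.50 CPM in Kat5 ko and 1.44 to 5.30 CPM in Ep400 ko libraries (adjusted p = 0.248 and 0.586). Ins2, next to Igf2, had 0 counts in all libraries, and Usp29, next to Peg3, had at most 3.

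Tested genes within 500 kb of a member that are not listed as imprinted were counted as neighbours. For Kat5 ko, 0 of 47 passed with edgeR, beside 0.625% of all genes, and 14 had an unadjusted p under 0.05. With so low a share over all genes, 0 calls do not show that these neighbours were unchanged. For Ep400 ko, 9 of 49 passed (18.4%, beside 13.7% of all genes, 5 higher and 4 lower). The nearest tested neighbours on either side of Peg3 were Zfp28, 307.0 kb away, and Zfp954, 384.3 kb away. Their log2-fold changes were 0.39 and 0.17 in Ep400 ko (adjusted p = 0.341 and 0.622). Closer genes outside the list were not tested. Fignl1, the nearest tested neighbour of Grb10 at 121.5 kb, had −0.47 (SE 0.37, adjusted p = 0.402). Wdr25, 424.4 kb upstream of Dlk1, had −0.03 (SE 0.24, adjusted p = 0.953). Mrpl23, 34.8 kb from H19, had −0.74 in Kat5 ko (SE 0.20, adjusted p = 0.0923). None of these nearest neighbours passed, and Meg3 had no tested neighbour within 500 kb outside the list. The neighbour counts were not recomputed with libraries left out. The 9 include Zpbp and 4930415F15Rik near Grb10, named after their values were seen. They had 14, 12 and 16 counts and 18, 9 and 14 counts in the Ep400 ko clones and at most 1 count in any wildtype library. Both passed the filter on low counts only through the Ep400 ko libraries, so their direction was fixed by the filter.

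**Figure D4:**
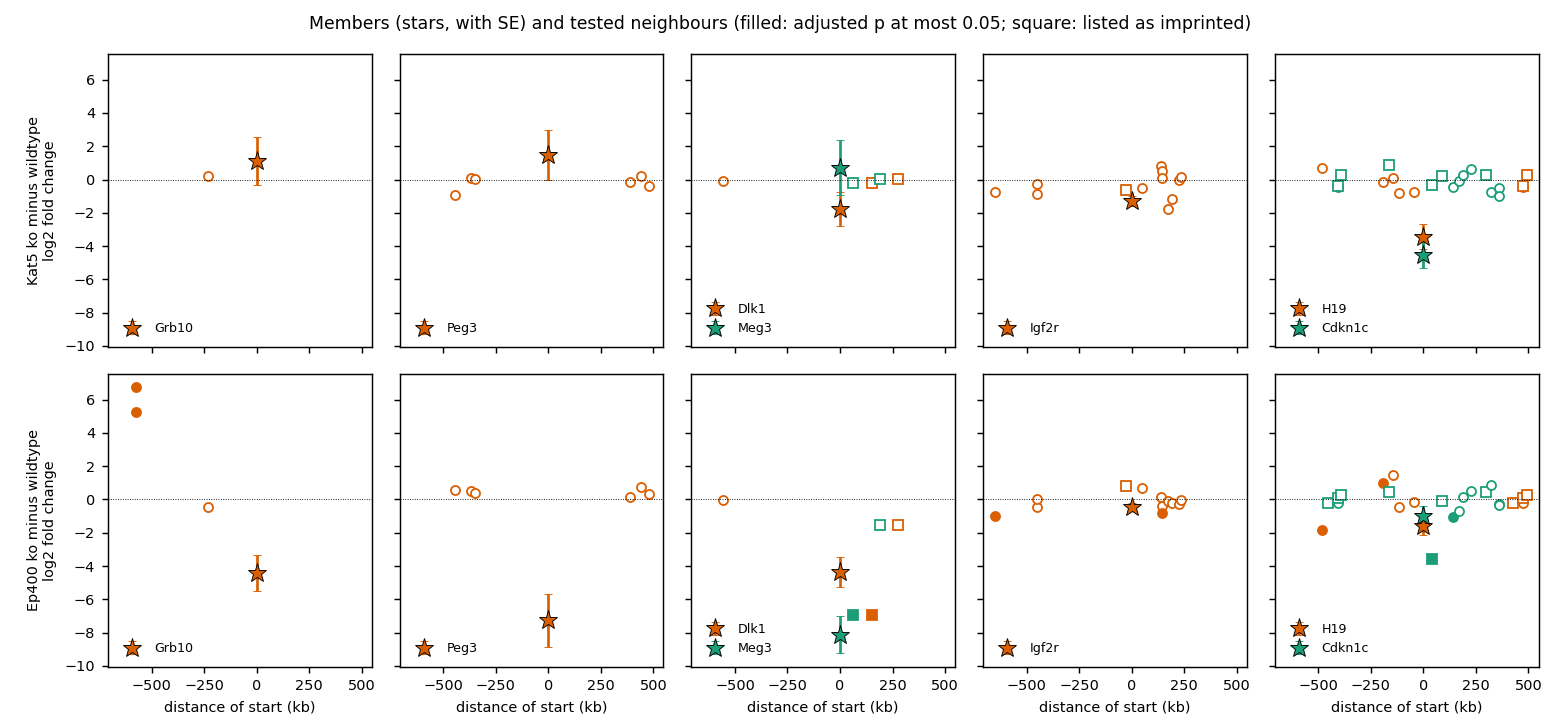
Log2-fold changes of 7 members (stars, with SE) and of tested genes around them against the distance of the starts in kb, for Kat5 ko (upper row) and Ep400 ko (lower row). Squares are listed as imprinted, and filled symbols passed an adjusted p of 0.05. In Ep400 ko the tested genes around Peg3, the nearest 307.0 kb away, were between 0.17 and 0.78 and Peg3 was at −7.27.

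In the wider list of 63 other imprinted genes, 1 of 37 tested passed for Kat5 ko (2.7%, higher) and 6 of 39 for Ep400 ko (15.4%, 3 higher and 3 lower), shares that stand beside 0.625% and 13.7% of all genes. Median log2-fold changes were −0.12 and 0.10. Peg12, a paternally expressed gene of the Snrpn cluster, rose in Kat5 ko clones from 5.95 to 8.34 CPM in wildtype to 15.9, 17 and 16.1 CPM (log2-fold change 1.15, SE 0.19, adjusted p = 0.0493). This call was lost when any wildtype library, Kat5/2 or Kat5/3 was left out, each leaving 0 genes, and without Kat5/1 the list had 12 called genes, 2 higher and 10 lower. In Ep400 ko clones, the amino acid transporter gene Slc38a4 fell from 49.2 to 189 CPM in wildtype to 1.66, 4.61 and 8.86 CPM (log2-fold change −4.09, SE 0.73, adjusted p = 0.0111). Together with Rian and Phlda2, whose direction was fixed by the filter on low counts, it made up the lower genes. Qpct, a glutaminyl cyclase, rose from at most 0.518 CPM to 3.85, 5.01 and 0.872 CPM (log2-fold change 3.32, adjusted p = 0.0259), and Pon2, a paraoxonase family member, rose by 0.87 on the log2 scale (adjusted p = 0.0232). Ndn, a growth suppressor of the MAGE family, also passed (log2-fold change 3.54, adjusted p = 0.0446), but its values were 43.6, 0.737 and 21.4 CPM and overlapped the wildtype range of 1.27 to 2.97 CPM. The count for Ep400 ko was 2 without WT/1, WT/2 or WT/4, 7 without WT/3 and 4 or 5 without a single clone. With 1 library left out, Rian and Slc38a4 passed in 7 of 7 fits, Pon2 in 4, Qpct in 3 and Ndn in 1. Over the 6 alternative settings, Slc38a4 passed in 6, Qpct in 5, Rian, Phlda2 and Pon2 in 4 and Ndn in 3.

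Between the knockouts, 3 of 35 other imprinted genes differed, which compares to 7.05% of all genes. Slc38a4 was lower in Ep400 ko than in Kat5 ko clones (log2-fold change −4.22, adjusted p = 0.0282), and Qpct (4.49, adjusted p = 0.0453) and Asb4, a subunit of ubiquitin ligases (4.43, adjusted p = 0.0314), were higher. In the Kat5 ko clones, Qpct had 1 to 10 counts and Asb4 had 2 to 6. Both passed the filter on low counts only through the Ep400 ko libraries, so their direction was fixed by the filter. Without Kat5/1 the count was 8, without Ep400/1 it was 1, and without Kat5/2, Kat5/3, Ep400/2 or Ep400/3 it was 0.

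Of 38 listed genes that set, keep or read imprints, 33 were tested. None passed for Kat5 ko with edgeR, 6 did at an unadjusted p under 0.05, and DESeq2 called 1 (Tdg). Without Kat5/1, 7 passed, 6 of them higher. For Ep400 ko, 5 passed, all lower (15.2% of those tested, beside 13.7% of all genes), and the list had a median log2-fold change of −0.39 compared to 0.04 for all genes. Zfp57 fell from 14.0, 27.5, 32.8 and 14.9 CPM in wildtype to 4.90, 0.707 and 3.51 CPM in Ep400 ko clones (log2-fold change −2.83, SE 0.62, adjusted p = 0.0221), while it was at 41.6, 18.2 and 20.5 CPM in Kat5 ko clones. The part of Zfp57 in the levels of the members was not tested. Tdg, a DNA glycosylase of active demethylation (−0.84, adjusted p = 0.0336), the heterochromatin protein gene Cbx5 (−0.78, adjusted p = 0.0301) and the histone H3 lysine methyltransferase genes Ehmt2 (−0.53, adjusted p = 0.0335) and Ehmt1 (−0.43, adjusted p = 0.0412) fell less. The maintenance methyltransferase Dnmt1 had −0.29 (SE 0.25, adjusted p = 0.459) and Ctcf, which binds the H19 control region, −0.13 (SE 0.14, adjusted p = 0.552) in Ep400 ko. The count of 5 was 0 without WT/2, 1 without WT/1, WT/4 or Ep400/2, 2 without WT/3, 3 without Ep400/3 and 6 without Ep400/1. Zfp57 passed in 5 of these 7 fits, Tdg and Cbx5 in 2, Ehmt2 in 1 and Ehmt1 in 0. Between the knockouts, Zfp57 (−3.14, adjusted p = 0.0453), Lin28b, a repressor of let-7 microRNAs (−2.97, adjusted p = 0.0368), and Tdg (−1.58, adjusted p = 0.0336) were lower in Ep400 ko. That count of 3 was 11 without Kat5/1, 1 without Ep400/1 and 0 without any other clone.

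Among 20 partners of the IGF pathway, 0 of 17 tested passed for Kat5 ko with edgeR, 5 had an unadjusted p under 0.05, and DESeq2 called 1 (Irs1). Without Kat5/1 there were 2. For Ep400 ko, 4 of 18 passed (22.2%, beside 13.7% of all genes). Foxo1, a transcription factor that IGF signaling keeps out of the nucleus, rose from 2.54 to 5.12 CPM in wildtype to 17.1, 24.9 and 32.6 CPM (log2-fold change 2.69, SE 0.31, adjusted p = 0.00283). The binding protein Igfbp6 (0.86, adjusted p = 0.0395) and the regulatory subunit Pik3r1 (0.82, adjusted p = 0.046) rose as well. Igf2bp1, an RNA-binding protein of Igf2 and H19 transcripts, fell from 78.7 to 97.7 CPM to 43.2, 43.3 and 37.3 CPM (log2-fold change −1.03, SE 0.13, adjusted p = 0.00399). The receptor genes Igf1r (0.18, adjusted p = 0.426) and Insr (−0.03, adjusted p = 0.955) did not pass. Without any 1 wildtype library the count was 2, and without a single clone it was 3 to 6. Foxo1 and Igf2bp1 passed in all 7 of these fits and Igfbp6 and Pik3r1 in 1. Between the knockouts, Foxo1 (2.85, adjusted p = 0.034), Pik3r1 (1.39, adjusted p = 0.0339) and Igfbp6 (1.19, adjusted p = 0.0407) were higher and Igf2bp1 (−1.82, adjusted p = 0.0271) was lower in Ep400 ko clones. These were 4 of 17 tested (23.5%, beside 7.05% of all genes). The count was also 4 without Kat5/1, was 1 without Ep400/1 and 0 without any other clone.

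Finally, the genes with the most similar pattern over the 10 libraries were searched among 13321 genes (13322 for Igf2), by the root mean square distance of log2 CPM after centering on the wildtype mean. Rian was nearest to Meg3 (distance 1.04), followed by Htatip2 (2.03), Cxcl5 (2.04), Cdh3 (2.13) and Rftn1 (2.14), with a median of 4.47 over all genes. Grb10 and Peg3, for which the search was added after values had been seen, were near each other (1.48) although they lie on different chromosomes. Rftn1, on chromosome 17, was nearest to Peg3 (1.36) and came second for Grb10 (1.68), and the medians over all genes were 4.12 and 3.79. For H19, the nearest were Sema4g (0.65), Rasl10a (0.66), Klc3 (0.81), Cers4 (0.83) and Doc2b (0.91), with a median of 2.51, and none is in the list of imprinted genes. The nearest genes to Dlk1 (AI467606, Maats1, Cacna1i, Krt8 and Slc2a3, distances 0.77 to 0.96) and to Igf2 (Mtss1l, Ube2l6, Tlr2, Mxd1 and Ankrd44, 0.30 to 0.50) rest on few counts.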

How the data were processed

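RNA of 4 wildtype, 3 Kat5 ko and 3 Ep400 ko libraries of O9-1 cells was sequenced (stranded poly-A kit). Per the submitters' processing notes, bcl2fastq 2.20, STAR 2.7.3 and mm10 were used. The strand setting of the counting is not given in the sources used here. The deposited raw counts made by the authors are whole reads per gene. The authors' normalized tables were not used. Depth ranged from 30968945 to 48301792 counts, and 3 counts were taken as the floor.

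Analysis used R 4.3.3. Each comparison was fitted separately with edgeR 4.0.16 (filterByExpr, TMM, quasi-likelihood test without covariates), and p-values were adjusted over all genes fitted (Benjamini-Hochberg). They set each group difference against the spread between cultures or clones within the groups. The wildtype libraries are not labelled as clones, so the spread between wildtype clones was not measured. All pairs of replicates differed beyond counting error. Members and lists were chosen with earlier results of these data known, and members have no p-values. Of other lists, genes with an adjusted p of at most 0.05 are named (up to 12 imprinted genes, 8 regulators and 6 IGF partners), with cluster mates, nearest tested neighbours and the 5 genes nearest in pattern. Log2 CPM used a prior count of 2. The fit was also run on simulated counts with less spread than these data, which does not show how it handles the spread seen here. Coordinates are from GENCODE M21 (GRCm38) and promoters from RefSeq (GRCm38.p6). Alternatives were DESeq2 1.42.0, other normalizations, no filter, a single fit, a replicate block and each library left out.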

Additional observations from a re-analysis of the deposited data

Results flagged for a closer look

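Single wildtype libraries far from the other 3 were searched for among 34 entries of named genes, with more than 1 entry for Snrpn. Dixon's ratio (the gap to the nearest library over the range) was used at its 95% critical value, which chance exceeds in about 1 in 20 groups. The ratio exceeded it for 6 genes. Grb10 (ratio 0.881) and Rian (0.87) were low in WT/3, and Cdkn1c (0.909), Slc38a4 (0.893, 189 CPM compared to 49.2 to 64.2) and Lin28b (0.836, 4.37 CPM compared to 0.519 to 1.15) were high in WT/3. Snrpn (ENSMUSG00000102252, 0.866) was highest in WT/2, at 4.05 CPM compared to 2.94 to 3.09. Peg3 and Meg3, also low in WT/3, did not reach the critical value. Grb10 and Cdkn1c were chosen with the spread between these cultures in view, so their ratios are a description and not a test. Rian and Snrpn were named after their values had been seen, and Slc38a4 and Lin28b because of calls in these libraries. The number of genes flagged is therefore a description as well.

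Slc38a4 (log2 difference −4.22), Zfp57 (−3.14), Lin28b (−2.97), Tdg (−1.58) and Igf2bp1 (−1.82) were lower in Ep400 ko than in Kat5 ko clones (edgeR, adjusted p of at most 0.05). Qpct (4.49), Asb4 (4.43), Foxo1 (2.85), Pik3r1 (1.39) and Igfbp6 (1.19) were higher. The direction of Qpct and Asb4 was fixed by the filter on low counts. With 1 clone left out, each of these genes passed in only 1 or 2 of 6 fits. These are differences between clones, in which the knockout and the state of the founder cells cannot be told apart.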

How the results depend on the processing

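The lists of other genes were small and their counts moved with the settings. For other imprinted genes, the count for Kat5 ko was 1, with DESeq2 6, and 0 with library sizes only, a single fit or a replicate block. For Ep400 ko it was 6, with DESeq2 10, and 2 with a single fit or a replicate block. Between the knockouts it was 3, with DESeq2 7 and with a single fit 8. For regulators, the count for Kat5 ko was 0 and with DESeq2 1. For Ep400 ko it was 5, with DESeq2 11 and with a replicate block 0. Between the knockouts it was 3, with DESeq2 9, with a single fit 13 and with a replicate block 1. For IGF partners, the count for Kat5 ko was 0 and with DESeq2 1. For Ep400 ko it was 4 and with a replicate block 0, and between the knockouts it was 4 and with a replicate block 1. With single libraries left out, the counts ranged for other imprinted genes from 0 to 12 (Kat5 ko), 2 to 7 (Ep400 ko) and 0 to 8 (between knockouts), for regulators from 0 to 7, 0 to 6 and 0 to 11, and for IGF partners from 0 to 2, 2 to 6 and 0 to 4. The causes were not tested. The replicate numbers do not pair the libraries (correlation of deviations from group means −0.0966 to 0.222), and the block also uses degrees of freedom. All genes called for Kat5 ko numbered 84 with edgeR, 1391 with DESeq2 and 0 with a replicate block. For Ep400 ko they numbered 1899, 3175 and 166, and between the knockouts 958, 3013 and 213.

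In the fits that included them, member log2-fold changes kept their sign except Meg3 in Kat5 ko with a replicate block (−2.80) and without Kat5/1 (−6.95), Plagl1 in Kat5 ko without Kat5/1 (−0.51), Mest in Ep400 ko (−0.68 to 0.18 with single libraries left out), and Plagl1 between the knockouts, which reached 0.00 without Ep400/2. A kept sign is no support for members that passed the filter on low counts only through the group where they were high. Through wildtype only, these were Dlk1, Meg3 and Peg3 for Ep400 ko and H19 and Cdkn1c for Kat5 ko. Between the knockouts, Cdkn1c passed only through the Ep400 ko libraries. Dlk1 and Peg3 did not pass the filter for Ep400 ko without WT/1, WT/2 or WT/4, nor did Dlk1, Meg3 and Peg3 between the knockouts with all libraries. With limits of 5% and 20% of the wildtype median, 4 and 5 of 7 members were below in some library, compared to 5 at 10%. Some libraries had at most 4 counts of a member, near or under the floor and too few for a level. These were Kat5/1, Kat5/3 and all Ep400 ko libraries for Dlk1. For Peg3 they were WT/3, Kat5/2 and all Ep400 ko libraries, and for Meg3 Kat5/2, Kat5/3 and all Ep400 ko libraries. Igf2 had more than 4 counts only in WT/3, WT/4 and Ep400/3.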
